A study of Mus musculus with 18 samples.

Results

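Conventional CD4+ T cells (Tconv) of brown adipose tissue (BAT) were compared with Tconv cells of the spleen in mice housed at 30°C. The means compared are those of 6 of the 18 arrays of the series, 3 of warm BAT Tconv cells and 3 of splenic Tconv cells, which were taken by their labels. The other arrays held regulatory T cells (Treg) of warm BAT and spleen and both cell types of BAT from mice exposed to 12°C. The labels give both groups the strain background C57BL/6, the genotype Foxp3-GFP-DTR-CD90.1 and a CD4+Foxp3- gate. The methods describe a different source, female wild-type C57Bl6 mice obtained at 8 weeks of age and kept at 30°C for 2 weeks, from which Tconv cells were sorted as CD4+CD25-. The values do not settle which description holds. Organs were pooled before sorting. Each replicate thus stands for several animals, and p-values measure only the spread between such pools, with no value for single mice. A legend of the study describes BAT and splenic Treg cells as coming from the same animals, so the tissues may share mice, but which pools share them is not given for the Tconv cells. Each array was made from 2.5 ng of RNA after amplification.

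Tconv cells are the CD4+ helper T cells that do not carry the regulatory program driven by the transcription factor Foxp3. In the spleen, a lymphoid organ that filters blood, most of them circulate as resting cells. In BAT, the fat depot that burns lipid to make heat, T cells are few and are recovered from the stromo-vascular fraction after digestion of the tissue. The comparison asks how the RNA of Tconv cells that reside in fat differs from that of their counterparts in a lymphoid organ.

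The arrays were Illumina MouseWG-6 v2.0 BeadChips, on which the fluorescence of many beads is averaged for each probe. Warm BAT and spleen were each hybridized on a BeadChip of their own, and each BeadChip carried 3 Tconv and 3 Treg arrays. A difference between BAT and splenic Tconv cells therefore cannot be told apart from a difference between the 2 BeadChips. The cold BAT arrays lay on another BeadChip, so their differences from warm BAT and spleen have the same limit. The table pairs 0 probes with a gene name and no annotation of the probes was used, so counts are of probes, genes are not named, and the sorted cells were not checked against marker genes of T cells, fat cells or other cell types.

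More probes gave signal in BAT than in splenic Tconv cells. The share of the 45267 probes with a detection p-value under 0.05 was 40.1%, 38.2% and 37.8% on the BAT arrays and 35.1%, 27.8% and 29.2% on the spleen arrays. The means were 38.7% ± 1.22 (SD, n = 3) and 30.7% ± 3.88, and the groups did not overlap (exact permutation test, two-sided p = 0.1, the smallest that 3 against 3 arrays allow). The deposited detection p-value was a lenient measure, as it also passed 22.1% to 24.0% of the 936 negative control probes on the BAT arrays and 22.5% to 23.7% on the spleen arrays. Above the 95th percentile of the negative controls of the same array lay 16.9%, 15.3% and 16.5% of the probes for BAT and 12.3%, 8.93% and 9.98% for spleen. By either measure, replicate 1 of the splenic Tconv cells was nearest to the BAT arrays.

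Control probes that do not depend on the sorted cells also differed between the BeadChips. The mean unnormalized intensity of the high-concentration hybridization controls was 15694 ± 623 on the BAT Tconv arrays and 12878 ± 580 on the splenic Tconv arrays, a ratio of 1.22. The ratio was 1.20 for the biotin controls, 1.17 for the medium-concentration and 1.11 for the low-concentration hybridization controls, with no overlap between the groups in any of these. It was 1.00 for the mismatch controls, whose values overlapped. On the Treg arrays of the same BeadChips, the ratios were 1.17 for the high-concentration, 1.21 for the biotin, 1.12 for the medium-concentration, 1.02 for the low-concentration and 0.980 for the mismatch controls. The negative controls went opposite ways in the 2 cell types, with a BAT over spleen ratio of 1.11 on the Tconv arrays and 0.895 on the Treg arrays. Of the 14 housekeeping probes, which do measure RNA of the cells, 7 were above the 95th percentile of the negative controls on all 6 Tconv arrays, with BAT over spleen ratios of 1.14 to 1.62. The mean of all 14 gave a ratio of 1.45 on the Tconv and 1.07 on the Treg arrays. The part of these differences in the results below was not tested.

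**Figure D1:**
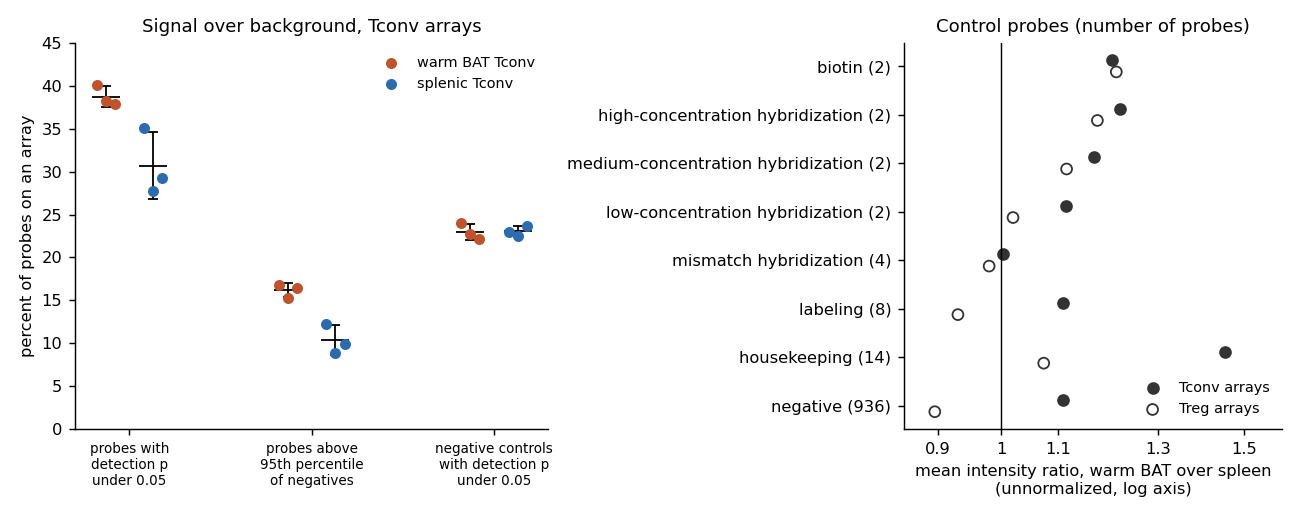
Left, the percentage of probes (or of negative control probes) that passed the named threshold on each warm BAT and splenic Tconv array, with the mean and SD of 3 arrays as bars and replicates 1 to 3 from left to right. Right, the mean unnormalized intensity of each kind of control probe on the warm BAT arrays over that on the spleen arrays, for Tconv and Treg arrays, on a log axis. The BAT arrays passed both thresholds more often than the spleen arrays, negative controls passed the detection threshold about equally, and the biotin and high-concentration hybridization controls were brighter on the BAT BeadChip in both cell types.

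Replicate 1 of the splenic Tconv cells was also the nearest to BAT in the normalized signals. Pearson's correlation over the 17395 tested probes was 0.913 to 0.927 between BAT Tconv arrays and 0.668 to 0.739 between splenic Tconv arrays. Splenic replicate 1 correlated with the 3 BAT Tconv arrays by 0.819 to 0.842, higher than with the other splenic Tconv arrays (0.727 and 0.739). The lowest correlation within the spleen (0.668) was between replicates 2 and 3, so replicate 1 was not the outlying array of its group. For splenic replicates 2 and 3, the correlations with BAT were 0.662 to 0.685 and 0.706 to 0.735. The median SD of a probe between arrays was 0.220 log2 units in BAT and 0.308 in splenic Tconv cells.

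In BAT Tconv cells, 331 probes were called higher and 132 lower than in splenic Tconv cells. Probes were called when limma's moderated test gave an adjusted p-value under 0.05 and the difference exceeded 2-fold. The adjustment (Benjamini-Hochberg) covered the 17395 probes that were detected on each array of 1 or more of the 6 groups of the series. The calls were 1.9% and 0.759% of the tested probes, and 71.5% of them were higher in BAT. The higher probes had a median log2 difference of 1.84 (3.58-fold) and the lower probes one of -1.24 (2.36-fold). The spread in the test was estimated from all 18 arrays, so the p-values draw on groups outside the comparison. A fit of only the 6 arrays compared called 141 probes higher and 21 lower. In RNA of sorted cells measured in bulk, fewer cells of a type and less RNA per cell cannot be told apart.

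The higher and lower probes differed in size. Among the higher probes, 196 differed by 1 to 2 log2 units, 111 by 2 to 3, 20 by 3 to 4 and 4 by more than 4. Among the lower probes, 120 differed by 1 to 2 and 12 by 2 to 3 log2 units, and 0 by more than 3. Over all tested probes, the median log2 difference was -0.03, and the 5th and 95th percentiles were -0.80 and 1.26. The tail toward BAT was the wider one.

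Size alone passed many more probes than the test. More than 2-fold higher in BAT Tconv cells were 1400 probes, and 487 were more than 2-fold lower. Of these, 971 (5.58% of the tested probes) had every BAT array above every spleen array, and 288 (1.66%) had every BAT array below. Of the called probes, 328 of the 331 higher and 131 of the 132 lower ones did not overlap between the groups. An adjusted p-value under 0.05 at any fold was reached by 362 higher and 226 lower probes, and an unadjusted p-value under 0.05 by 3365 probes (19.3%).

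**Figure D2:**
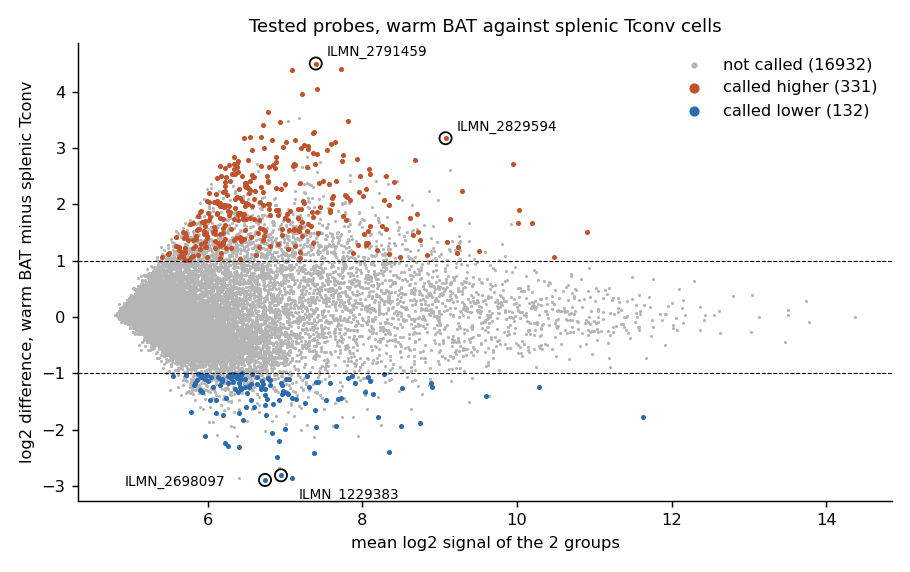
The log2 difference between warm BAT and splenic Tconv cells against the mean log2 signal of the 2 groups, with 1 point per tested probe. The 331 probes called higher reach 4.50 log2 units and the 132 called lower reach -2.90. The dashed lines mark 2-fold and the circles the 4 probes described singly.

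The calls in both directions lay mainly among the brighter probes. Ranked by the mean signal of the 2 groups compared, the brightest 4349 of the tested probes held 211 called higher and 90 called lower. The 4348 next in rank held 101 and 40, and the dimmest 4349 held 0 of either. The mean log2 signals of the dimmest ran from 4.81 to 5.37, which leaves little room for a 2-fold difference. Their lack of calls is therefore no result. By the lenient detection p-value, 112 of the higher probes (33.8%) and 117 of the lower probes (88.6%) were detected on all 6 arrays, beside 46.4% of all tested probes. By the stricter measure, 28 of the higher probes (8.46%) and 51 of the lower probes (38.6%) exceeded the 95th percentile of the negative controls on all 6 arrays, beside 11.1% of all tested probes. On the spleen arrays, 196 of the higher probes (59.2%) exceeded that percentile on none, a share close to the 57.7% of all tested probes. On the BAT arrays, 322 of the 331 higher and 51 of the 132 lower probes exceeded it on all 3, beside 5099 of the 17395 tested probes. On all 3 BAT and 0 spleen arrays, 187 of the higher probes (56.5%) exceeded it, beside 3.99% of all tested probes. The higher probes were chosen to be bright in BAT, so part of this follows from the choice. A probe that is dim in spleen could pass the filter through BAT alone. Over all tested probes, 736 were detected on the 3 BAT and on 0 spleen arrays, against 45 the other way round. For the 46 higher probes undetected on all spleen arrays, spleen signals were set no lower than the lowest detected signal of the same array. The median log2 difference of all higher probes was then 1.82. This bound rests on the lenient detection p-value and touched few probes, so it could move the median only a little.

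The balance of directions depended on which probes were tested and how the arrays were scaled. When only the 8068 probes detected on all 6 arrays were fitted, 128 were called higher and 128 lower, a share of 50% for each direction. These probes had a median log2 difference of -0.18. When background-corrected signals were scaled to a common median in place of quantile normalization, the median of all tested probes moved to 0.20, and 685 probes were called higher against 16 lower, so that 97.7% of the calls were higher. Without background correction, 87.6% of the calls were higher (170 against 24 lower).

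The largest difference among probes without overlap was that of ILMN_2791459. Its log2 signal was 9.90, 9.52 and 9.54 on the BAT Tconv arrays and 5.44, 4.86 and 5.14 on the splenic Tconv arrays. All 3 BAT arrays were thus far above all 3 spleen arrays, with a difference of 4.50 (SE 0.38, limma adjusted p = 4.61e-05), or 22.7-fold. In the fit of only the 6 arrays compared, the evidence was weaker (limma adjusted p = 0.00454). The probe was detected on 1 of the 3 spleen arrays and exceeded the 95th percentile of the negative controls on 0 of them. With the spleen signals set no lower than that percentile, the difference was 9.54-fold. The fold depended on the treatment of background, with 12.0-fold at an offset of 50 and 6.87-fold without background correction. On the Treg arrays, it was also higher in warm BAT, by 2.42 (SE 0.38, limma adjusted p = 0.00231). The Tconv difference exceeded the Treg difference by 2.08 (SE 0.53), which did not pass the test (limma adjusted p = 0.185). In cold BAT Tconv cells, measured on another BeadChip, the signals were 8.70, 9.30 and 8.61, between those of warm BAT and spleen.

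Among the probes detected on all 6 arrays, ILMN_2829594 had the largest positive difference. Its log2 signal was 11.17, 10.36 and 10.47 in BAT and 8.36, 6.45 and 7.67 in splenic Tconv cells. Every BAT array was higher than every spleen array, although the spleen arrays spanned nearly 2 log2 units. The difference was 3.18 (SE 0.62, limma adjusted p = 0.0146), or 9.04-fold. On the Treg arrays it was 3.31 (SE 0.62, limma adjusted p = 0.0081), and the 2 cell types differed in this by -0.13 (SE 0.88, limma adjusted p = 0.980). In Tconv cells it was 5.35-fold without background correction and 13.9-fold with median scaling. The call was lost in the fit of only the 6 arrays compared (limma adjusted p = 0.0630), without BAT replicate 1 (adjusted p = 0.0691) and without splenic replicate 2 (adjusted p = 0.0574).

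In the direction of the spleen, ILMN_2698097 had the largest difference among probes called without overlap. Its log2 signal was 5.29, 5.51 and 5.08 in BAT and 6.55, 9.23 and 8.79 in splenic Tconv cells, so the spleen arrays were all higher but splenic replicate 1 lay nearest to BAT. The difference was -2.90 (SE 0.70, limma adjusted p = 0.0366), or 7.44-fold. The probe was detected on 2 of the 3 BAT arrays but exceeded the 95th percentile of the negative controls on 0 of them, and with the BAT signals set no lower than that percentile the difference was 5.04-fold. It was 4.61-fold at an offset of 50, 3.05-fold without background correction and 13.1-fold without splenic replicate 1. On the Treg arrays the difference was -0.35 (limma adjusted p = 0.816), and the groups overlapped. The 2 cell types differed in this by -2.545 (SE 0.98), which did not pass the test (limma adjusted p = 0.502). The call in Tconv cells was lost in the fit of only the 6 arrays compared (limma adjusted p = 0.137), with no filter (0.0926), with array weights (0.0817), without BAT replicate 1, 2 or 3 (adjusted p = 0.110, 0.0916 and 0.109) and without splenic replicate 2 or 3 (adjusted p = 0.129 and 0.0966).

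Detected on all 6 arrays by the detection p-value, ILMN_1229383 was lower in BAT with less spread. Its log2 signal was 5.86, 5.34 and 5.42 in BAT and 7.57, 8.57 and 8.92 in splenic Tconv cells, and the groups were separated by more than 1 log2 unit. The difference was -2.81 (SE 0.26, limma adjusted p = 8.16e-05), or 7.03-fold. In the fit of only the 6 arrays compared, the evidence was weaker (limma adjusted p = 0.0420). The probe exceeded the 95th percentile of the negative controls on 1 of the 3 BAT arrays, and with the BAT signals set no lower than that percentile the difference was 5.59-fold. It was 4.50-fold at an offset of 50 and 2.80-fold without background correction. On the warm BAT Treg arrays the signals were 5.29, 5.11 and 5.32, and on the splenic Treg arrays 5.39, 5.47 and 5.08, which overlapped (difference -0.07, limma adjusted p = 0.910). The probe was therefore brighter on the 3 splenic Tconv arrays than on the 15 others, which included the splenic Treg arrays of the same BeadChip.

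**Figure D3:**
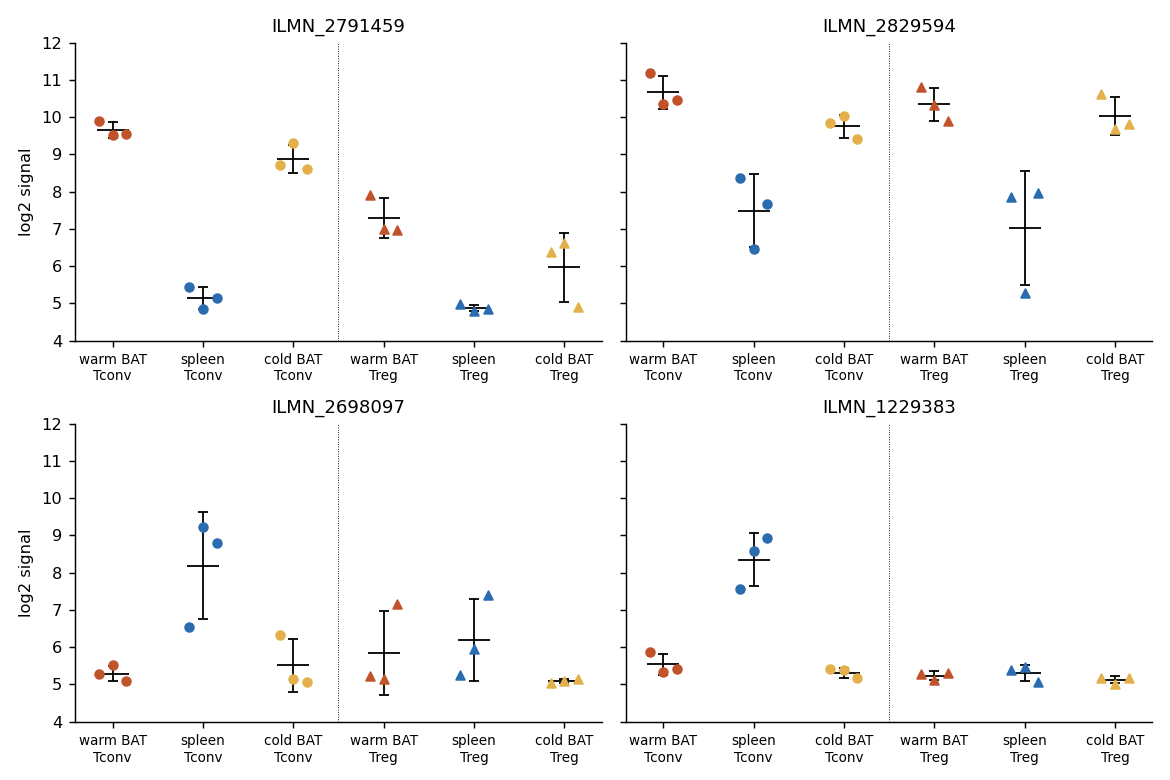
Log2 signal of the 4 probes on all 18 arrays, with replicates 1 to 3 from left to right in each group and the mean and SD of 3 arrays as bars. Circles are Tconv and triangles Treg arrays. ILMN_2829594 was higher in warm BAT than in spleen in both cell types, whereas ILMN_1229383 was high on the splenic Tconv arrays alone (7.57, 8.57 and 8.92).

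Before background correction, the measurement error within an array was small beside the differences between the groups. The 4 probes were read from 16 to 59 beads on each of the 6 arrays, and the standard error over the beads was 3.14% to 6.86% of the uncorrected intensity. On that scale, the brighter group exceeded the dimmer one 8.57-fold for ILMN_2791459 and 7.69-fold for ILMN_2829594. For ILMN_2698097 and ILMN_1229383 it did so 2.45-fold and 2.04-fold. Near background, the error is a larger part of the corrected signal, which was not computed.

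The number of calls depended on single arrays. Without splenic replicate 1, 587 probes were called higher and 298 lower, 301 and 105 of them among the original calls. Without splenic replicate 2, the counts fell to 165 and 86. They also fell without BAT replicate 1 (125 and 43), BAT replicate 2 (143 and 56) and BAT replicate 3 (200 and 65). Without splenic replicate 3, they were 252 and 152. Within the called probes, splenic replicate 1 lay nearest to BAT most often. It was the highest of the 3 spleen arrays for 203 of the 331 higher probes, against 54 and 74 for replicates 2 and 3, and the lowest for 64 of the 132 lower probes, against 25 and 43. The mean log2 signal of the 331 higher probes was 7.93, 7.79 and 7.75 on the BAT arrays and 6.19, 5.62 and 5.80 on the spleen arrays. That of the 132 lower probes was 6.10, 6.20 and 6.15 in BAT and 7.34, 7.66 and 7.61 in spleen.

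A smaller set of probes was called whichever of the 6 arrays was left out. It held 95 of the higher probes, with a median log2 difference of 2.33, and 24 of the lower probes, with a median of -1.51.

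**Figure D4:**
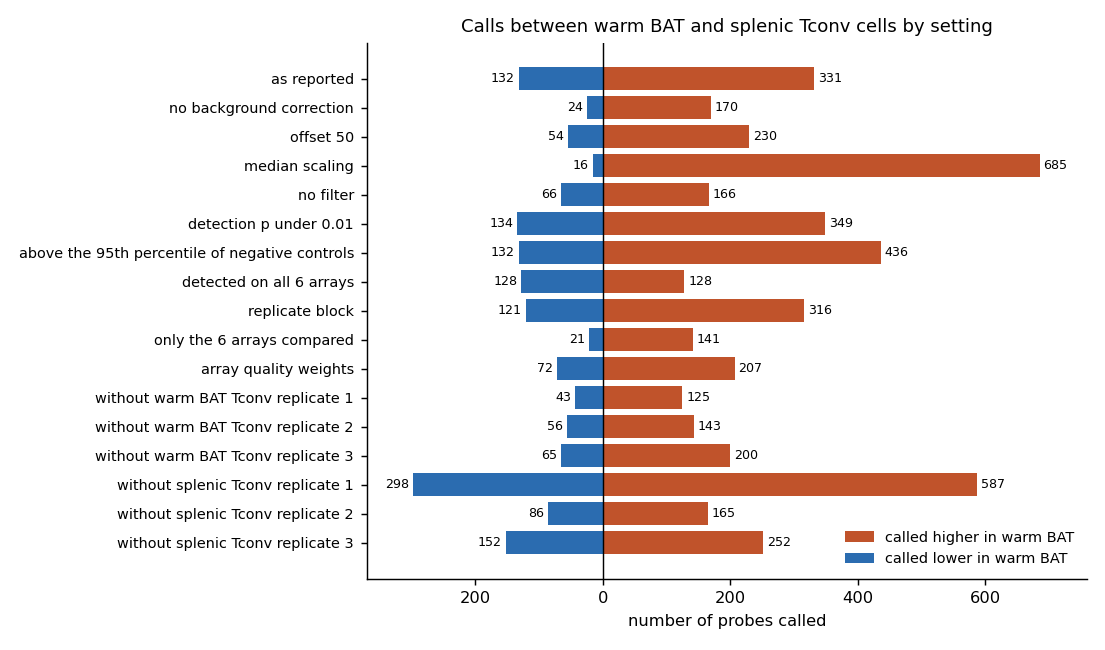
Number of probes called higher (right) and lower (left) in warm BAT than in splenic Tconv cells, as reported, under other settings of limma's test and with 1 of the 6 arrays left out. The counts shown run from 125 to 685 for higher and from 16 to 298 for lower probes.

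The same probes were then followed in Treg cells, whose arrays had no part in the Tconv means. They did share the 2 BeadChips, the normalization, the filter of tested probes and the estimate of the spread. Tconv and Treg cells of a tissue may also share mice. Most probes called in Tconv cells had the same direction in Treg cells. Of the 331 higher probes, 284 (85.8%) were higher in warm BAT Treg cells too, 148 (44.7%) by more than 2-fold, with a median log2 difference of 0.92. Over all tested probes, 42.1% were higher and 7.67% more than 2-fold higher in Treg cells, with a median of -0.08. Of the 132 lower probes, 117 (88.6%) were also lower in warm BAT Treg cells and 25 (18.9%) by more than 2-fold, with a median of -0.52. The corresponding values over all tested probes were 57.9% and 2.72%. Since the probes were chosen for a large difference in Tconv cells, a smaller one in Treg cells follows from the choice and is no result.

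In Treg cells, 442 probes (2.54%) were called higher and 150 (0.862%) lower in warm BAT than in spleen. Called higher in both cell types were 99 probes, which are 29.9% of the Tconv calls and 22.4% of the Treg calls. Called lower in both were 21 probes, which are 15.9% and 14% of these. A single probe called higher in BAT Tconv cells was called lower in BAT Treg cells. Both counts varied when 1 array was left out. Without BAT Tconv replicates 1, 2 and 3, they were 57 and 8, 68 and 9, and 86 and 12. Without splenic Tconv replicates 1, 2 and 3, they were 126 and 23, 66 and 12, and 89 and 21. Leaving out warm BAT Treg replicates 1, 2 and 3 gave 70 and 10, 72 and 13, and 76 and 20. Leaving out splenic Treg replicates 1, 2 and 3 gave 93 and 28, 73 and 13, and 105 and 21. Of the 95 higher probes called whichever Tconv array was left out, 50 (52.6%) were also called in Treg cells, and of the 24 lower probes, 6 (25%).

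Chosen on the Treg arrays, probes also separated the Tconv arrays. The mean log2 signal of the 442 probes called higher in warm BAT Treg cells was 6.82, 6.58 and 6.45 in BAT Tconv and 5.70, 5.50 and 5.68 in splenic Tconv cells. That of the 150 probes called lower was 6.80, 6.89 and 6.92 in BAT Tconv and 7.47, 7.46 and 7.39 in splenic Tconv cells. As the choice was made on Treg cells, the difference of the 442 probes between the tissues was larger there, at 2.04 log2 units against 0.99 in Tconv cells. The Tconv groups did not overlap in either set. Splenic Tconv replicate 1 lay close to splenic replicate 3 in the higher set and was farthest from BAT in the lower set. The mean over all 17395 tested probes did not overlap either, with BAT Tconv higher by 0.057 log2 units.

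**Figure D5:**
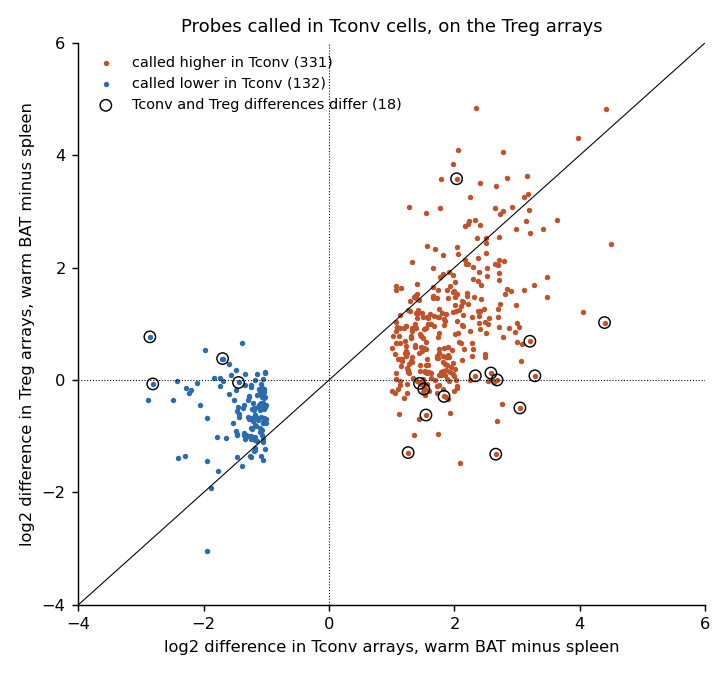
Log2 difference between warm BAT and spleen in Treg arrays against that in Tconv arrays, for the 331 probes called higher and the 132 called lower in Tconv cells. The diagonal marks equal differences, and circles mark the 18 of these probes for which the 2 differences differed by the test. Most points lie on the same side of 0 in both cell types, and the choice of probes on the Tconv axis places them nearer to 0 on the Treg axis.

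Since each BeadChip carried both cell types, the difference between the tissues in Tconv cells could be tested against that in Treg cells, in which an additive shift of a whole BeadChip cancels. A shift that differs between the cell types does not cancel, and the ratios of the negative and housekeeping controls differed between them. The BAT minus spleen difference was called more positive in Tconv than in Treg cells for 16 probes (0.092%) and more negative for 17 (0.0977%), and 1457 probes (8.38%) had an unadjusted p-value under 0.05. Among probes detected on all 12 arrays, 2 and 1 were called. Of the 16 probes, 13 were called higher in BAT Tconv cells and the other 3 were not called there. They had a median difference of 2.08 in Tconv and -0.23 in Treg cells. Within the BeadChips, they had a median Tconv minus Treg difference of -1.71 on the spleen BeadChip and 0.54 on the BAT BeadChip, and 13 of them had every splenic Tconv array below every splenic Treg array (6.44% of all tested probes). Every BAT Tconv array was above every BAT Treg array for 7 of them (10.6% of all tested probes). The same 12 arrays chose these probes, so their differences within the BeadChips follow at least in part from the choice.

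For the 17 other probes, the median difference between BAT and spleen was -0.04 in Tconv and 2.08 in Treg cells, and 13 were called higher in BAT Treg cells. On the BAT BeadChip, their median Tconv minus Treg difference was -1.82, and 13 had every BAT Tconv array below every BAT Treg array (8% of all tested probes). On the spleen BeadChip the median was 0.12, and 6 had every splenic Tconv array above every splenic Treg array (5.32% of all tested probes). These probes, too, were chosen on the arrays that gave these values. In Tconv cells, 4 of the 17 were called lower in BAT and 1 was called higher. Both counts varied with the arrays included. Without splenic Tconv replicate 1 they were 82 and 51, and without BAT Tconv replicate 1 they were 6 and 11. They were 10 and 13 without BAT Tconv replicate 2, 4 and 10 without BAT Tconv replicate 3, 6 and 14 without splenic Tconv replicate 2, and 10 and 20 without splenic Tconv replicate 3. Leaving out warm BAT Treg replicates 1, 2 and 3 gave 4 and 10, 7 and 14, and 7 and 18, and leaving out splenic Treg replicate 1 gave 14 and 10.

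The called probes were also measured in the remaining groups. For the 331 higher probes, the mean log2 signal was 7.83 ± 0.10 (SD, n = 3) in warm BAT Tconv, 7.43 ± 0.13 in cold BAT Tconv, 7.70 ± 0.06 in warm BAT Treg, 7.55 ± 0.06 in cold BAT Treg, 6.67 ± 0.16 in splenic Treg and 5.87 ± 0.29 in splenic Tconv cells. For the 132 lower probes, it was 6.15 ± 0.05, 6.49 ± 0.08, 6.07 ± 0.07, 6.17 ± 0.11, 6.64 ± 0.08 and 7.54 ± 0.17 in the same order. For the lower probes, cold BAT Tconv cells were thus nearer to splenic Treg cells than to warm BAT Tconv cells. The cold arrays lay on a BeadChip of their own, and warm BAT Tconv cells were low by choice, so this is no result about cold. The warm BAT and splenic Tconv arrays chose these probes, so their values are the farthest apart by choice. The 2 spleen groups, which shared a BeadChip, did not overlap for either set, with 122 of the 331 higher probes below and 69 of the 132 lower probes above in every splenic Tconv array compared with every splenic Treg array. Over all tested probes, these were 1121 (6.44%) and 925 (5.32%) of 17395. The splenic Tconv arrays had a part in choosing both sets, so this separation follows at least in part from the choice.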

How the data were processed

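Deposited by the authors was 1 table of intensity values, the mean over beads for 46237 probes on 18 arrays, neither normalized nor corrected for background, beside a detection p-value whose calculation is not given in the sources used here. Bead standard deviations and bead numbers were used for bead errors, and 36 columns of outlying and bad beads were not used. With limma 3.58.1 (R 4.3.3), neqc corrected the intensities of 45267 regular probes with 936 negative controls (offset 16), followed by quantile normalization and log2. The tested probes were detected (p under 0.05) on all 3 arrays of 1 or more groups and entered 1 fit of all arrays, with 1 mean per group. The difference between cell types was a contrast in this fit. For the Tconv contrast alone, the code was run on simulated data with normal noise, an equal spread in all groups and no BeadChip effect. That run cannot speak to the BeadChips or the unequal spread of these arrays. Permutations and figures used Python 3.11.15, scipy 1.17.1 and matplotlib 3.10.9. The methods name no normalization for these arrays and, for experimental data in general, a two-tailed Student's test, which was run as an alternative. The probes named were the farthest from 0 in each direction among calls without overlap, and the next such among probes detected on all 6 arrays. The comparison, rules and alternatives were chosen with earlier results of these data known. Lists of marker and pathway genes were not used, since probes carry no gene names. The number of arrays limits the precision.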

Additional observations from a re-analysis of the deposited data

Results flagged for a closer look

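The difference between BAT and spleen was not the same in Tconv and Treg cells for a small number of probes, by limma's test of the difference between these differences. It was called more positive in Tconv cells for 16 probes and more negative for 17. Among them was ILMN_1229383, whose BAT minus spleen difference was lower in Tconv than in Treg cells by -2.74 log2 units (SE 0.37, limma adjusted p = 0.00657), with all 3 splenic Tconv arrays above the other 15 arrays. With 3 arrays a group, single arrays were not tested as outliers.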

How the results depend on the processing

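With 1 array left out, the probes called higher numbered 125 to 587 and those called lower 43 to 298, the differences between cell types 4 to 82 (more positive in Tconv) and 10 to 51 (more negative), and the probes called in both cell types 57 to 126 (higher) and 8 to 28 (lower). The cause was not tested for these or the following counts. Without background correction, 170 probes were higher and 24 lower, 10 were more negative in Tconv, and 60 and 5 were called in both cell types. With an offset of 50, 54 were lower and 7 of them lower in both. With median scaling, 685 were higher and 16 lower, 4 were more positive in Tconv, and 281 and 1 were called in both. Without a filter, these counts were 166 and 66, 5 and 11, and 53 and 11, with 45267 probes tested. Among probes detected on all 6 arrays, 128 were higher. Among those detected on all 12 Tconv and Treg arrays, 2 and 1 differed between cell types and 25 were higher in both. A fit of the 6 arrays gave 141 higher and 21 lower, and one of the 12 warm arrays 9 and 30 between cell types and 13 lower in both. Array weights gave 207 and 72, and 7 and 11 between cell types. The methods' t-test on log2 signals gave 692 and 215 at an unadjusted p under 0.05 and 9 and 1 after Benjamini-Hochberg. On linear signals it gave 726 and 3, then 4 and 0. A stricter filter, added after seeing the data, required signal above the 95th percentile of negative controls and gave 436 and 132.

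No source ties replicate numbers to shared mice, and deviations of BAT and splenic Tconv arrays with the same number correlated by 0.010, 0.0009 and 0.016. With the replicate block, 316 probes were higher and 121 lower, and 9 and 11 differed between cell types. For the 4 named probes, 51 of 62 other settings kept the call, 11 lost it and 0 turned the direction. The losses were of ILMN_2829594 (limma adjusted p up to 0.0691) and ILMN_2698097 (up to 0.137). ILMN_2791459 (limma adjusted p up to 0.00454) and ILMN_1229383 (up to 0.0420) kept the call in each setting run. Signal over background limits what can be called in spleen.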

Other observations

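The spread between replicate arrays was larger than the error within an array, more so in spleen. On the log2 scale of the deposited intensities, with each array centred on its median, the median standard error over the beads was 0.077 in BAT and 0.074 in splenic Tconv arrays, and the median SD between arrays was 0.138 and 0.167. Among the 1218 tested probes with a mean log2 signal over 8, the SD between arrays was 0.161 in BAT and 0.363 in spleen, while the bead errors were 0.064 and 0.067.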
